A study of Mus musculus with 6 samples.

Results

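The integrated stress response is described here through 10 genes, which are its transcription factors and some of their transcriptional outputs. They are *Atf4*, *Atf5* and *Ddit3* (transcription factors), *Trib3*, *Chac1* and *Asns* (intracellular targets), *Sesn2* and *Ddit4* (brakes on mTORC1 signalling), and *Fgf21* and *Gdf15* (secreted hormones). Each was taken as the row of the count table that carries its name, and all 10 were present among the 51499 loci of the table, each on a row of its own. The counts come from RNA-Seq of mouse embryonic fibroblasts (MEFs) collected 72 h after transfection, with 3 samples of cells that received Yme1l siRNA and 3 of cells that received the control siRNA, called Scr. Both groups had the WT genotype. By the study's methods, the WT MEFs set beside *Yme1l* knockout MEFs are clonal, picked after Cre was introduced into *Yme1l* loxP/loxP cells. They were found by genotyping to keep the loxP/loxP alleles. The methods also describe other WT MEFs and do not state which were given these siRNAs. If they were the clonal MEFs, both groups carry these alleles and share that history. The labels call the line 3T3 immortalized, whereas the methods name SV40 large T antigen, which binds p53, and this was not settled here. The question put to these genes was whether they differed between the siRNA groups.

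In the integrated stress response, kinases that sense different stresses phosphorylate the translation initiation factor eIF2α. General translation then falls, while a few mRNAs with upstream open reading frames, *Atf4* and *Atf5* among them, are translated better. ATF4 protein pairs with C/EBP family partners and raises genes of amino acid supply, redox balance and feedback, and mitochondrial stress in mammalian cells reaches it through the protease OMA1, its substrate DELE1 and the kinase HRI. RNA levels report the transcriptional output of this pathway and not the translation of its regulators. YME1L, the target of the siRNA, is an ATP-dependent protease of the mitochondrial inner membrane.

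ATF4 with a C/EBP partner binds composite elements, whose core was searched as TGATGNAA on both strands of the promoter windows of RefSeq (GRCm38.p6), which run from 250 bases before to 50 bases after each transcription start. All 10 genes had a window, with 12 windows in all. The core was present in 4 of the 12 windows, in 4 genes, compared with 3.97% of 32851 windows of the whole table. The 10 genes were listed as factors and outputs of this response, so the comparison is a description. Those stretches are shown because they hold the letters of the element in genes that ATF4 is known to control. Each is 30 bases long and is written on the strand of the gene, with the core in capitals.
Chac1: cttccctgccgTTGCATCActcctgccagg
Fgf21: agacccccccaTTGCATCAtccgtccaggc
Asns: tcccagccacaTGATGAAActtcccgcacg
Trib3: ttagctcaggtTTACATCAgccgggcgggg
The stretches lie at chr2:119351038-119351067 (*Chac1*, plus strand), chr7:45615611-45615640 (*Fgf21*, minus strand), chr6:7693214-7693243 (*Asns*, minus strand) and chr2:152344028-152344057 (*Trib3*, minus strand). The core begins 193, 139 and 23 bases before the start in *Chac1*, *Fgf21* and *Asns*, and at base 15 of the transcript in *Trib3*. In *Chac1*, *Fgf21* and *Trib3* it reads on the opposite strand. The CRE palindrome TGACGTCA, a site of the wider CREB and ATF family, was found in 0 of the 12 windows and in 1.79% of all windows. A match is only a stretch of letters, and a window without one does not describe binding.

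The libraries held between 37260605 and 45205207 counts. Levels are CPM, the counts relative to a library size that was scaled with edgeR's TMM factors. The groups were compared with edgeR's quasi-likelihood test over the 14499 loci that passed a filter on low counts, and a difference is called at an adjusted p under 0.05. *Yme1l1*, the gene named by the siRNA, was at 170.5, 171 and 171 CPM in the Scr libraries and at 31.6, 23.4 and 45.04 CPM in the Yme1l siRNA libraries, as the labels state. In its share of mtDNA counts, Scr replicate 3 stood apart from the other Scr libraries. The mtDNA-encoded loci took 2.196% of its counts, against 4.11% and 3.92% in Scr replicates 1 and 2. They took 2.00 to 2.14% in the Yme1l siRNA libraries. Counts of called genes are therefore also given without Scr replicate 3. By the SD across loci of log2 CPM around the group mean, it did not stand apart from all other libraries. This SD was 0.243 for Scr replicate 3, and 0.218 and 0.208 for Scr replicates 1 and 2. It was 0.198, 0.259 and 0.277 for Yme1l siRNA replicates 1, 2 and 3. Fibroblast markers were abundant, although *Thy1* had at most 1 count in any library. Their summed level was 34143 to 41356 CPM in Scr and 18377 to 22787 CPM after Yme1l siRNA. There 8 of the 9 tested fell, and 9 of 9 without Scr replicate 3, compared with 29.6% and 27.4% of all loci. Of the leukocyte markers *Adgre1* had no count and *Ptprc* had 3 counts in 1 library. *Csf1r* rose (log2 fold change 0.74), whereas *Cd68* (-0.13) and *Lyz2* (-0.34) did not pass the test. With *Csf1r*, the list's sum went from 163 to 180 CPM to 242 to 255 CPM. Epithelial markers summed to at most 0.194 CPM in Scr and at most 1.33 CPM after Yme1l siRNA, endothelial markers to 3.79 to 4.08 and 5.68 to 7.81 CPM, and muscle markers to 3.30 to 3.77 and 2.40 to 3.50 CPM, with *Myod1* and *Myog* at 0. *Krt8*, the only epithelial marker tested, had 1, 1 and 1 counts in Scr and 24, 31 and 23 after Yme1l siRNA (log2 fold change 4.45). Of the endothelial markers *Kdr* (2.57) and *Tek* (0.61) rose, and *Pecam1* (0.47) did not pass the test. *Krt8* and *Kdr* passed the filter through the Yme1l siRNA libraries. The part of these markers in the results was not tested, and fewer cells of a type and less RNA per cell cannot be told apart in bulk RNA.

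Of the 10 genes, 6 rose after Yme1l siRNA (*Atf4*, *Ddit3*, *Chac1*, *Asns*, *Fgf21* and *Gdf15*), 2 fell (*Ddit4* and *Atf5*), and *Trib3* and *Sesn2* did not pass the test. Of all loci tested, 58.0% were called, 28.4% as higher and 29.6% as lower, so a call was common in this comparison. The CPM values of the groups did not overlap in 8 of the 10 genes, whereas 65.4% of all loci had groups that did not overlap. The median log2 fold change was 0.46 over the 10 genes and 0.01 over all loci. *Fgf21* passed the filter through the Yme1l siRNA libraries, since 1 Scr library reached the required level of 0.238 CPM, and these counts are a description of the genes. Without Scr replicate 3, 8 of the 10 rose and 1 fell, where 25.8% of the 14836 loci tested in that fit rose and 27.4% fell, and the median of the 10 was 0.65. The groups then did not overlap in 10 of the 10 genes, compared with 72.3% of loci. Scr replicate 3 was the highest Scr library at all 10 genes, so leaving it out moved every fold change upward. In the fits without another library 4 to 6 of the 10 rose, the fewest without Scr replicate 2, and 1 to 2 fell. Over the same fits 3451 to 4133 of all loci rose and 3616 to 4312 fell.

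**Figure D1:**
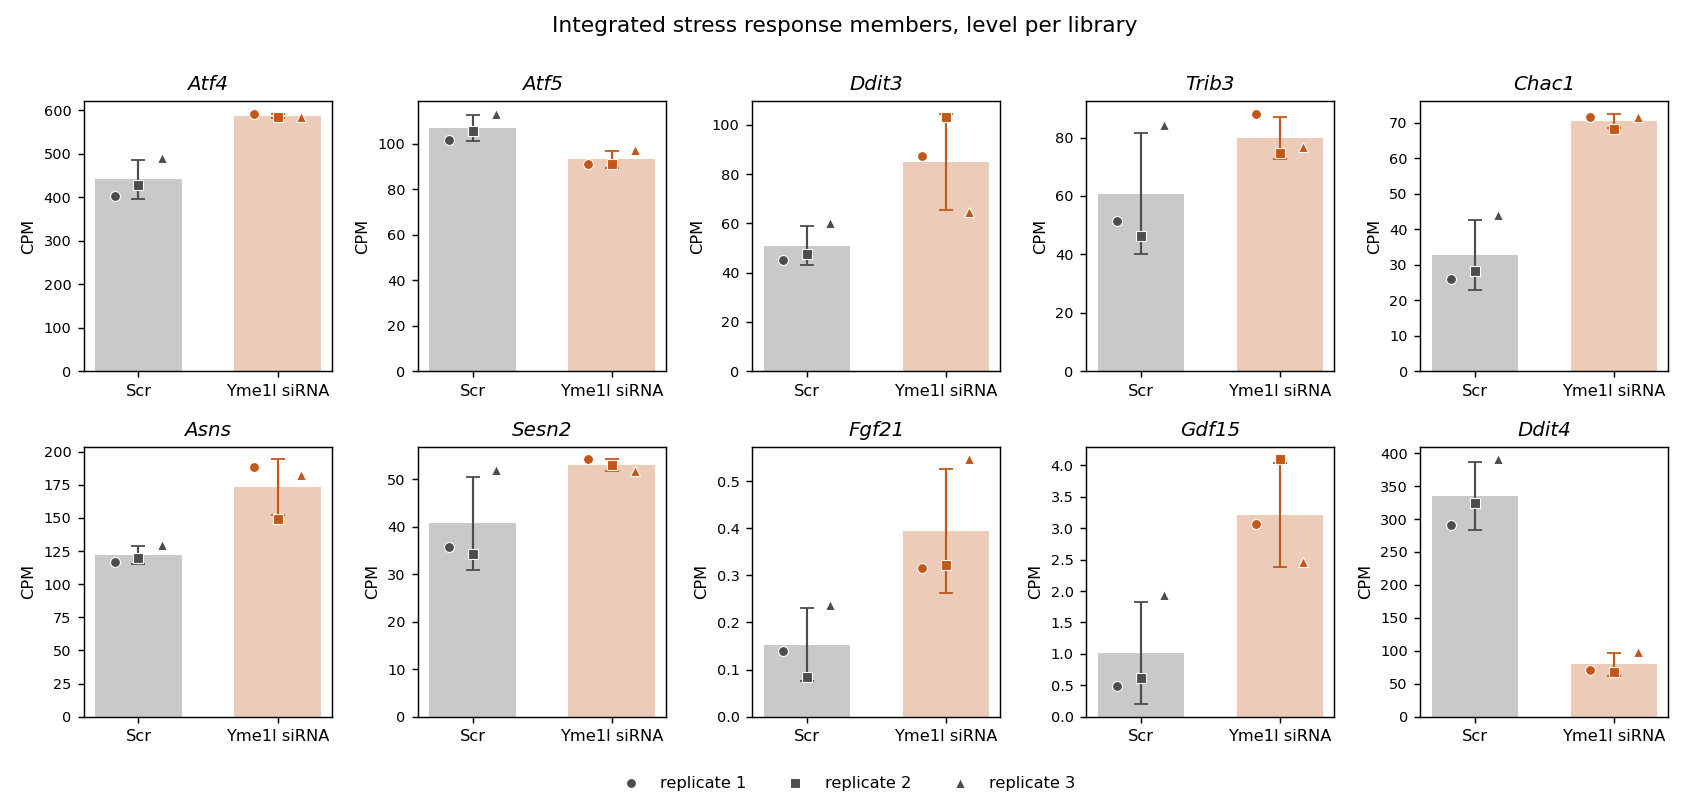
Level of the 10 genes in each library, in CPM on a linear axis that starts at 0 in every panel. Points are the 3 libraries of a group (circle, square and triangle for replicates 1, 2 and 3), bars are means and error bars are SD (n = 3). Scr replicate 3 is the highest Scr library in all 10 panels, and *Ddit4* and *Atf5* are the panels in which the Yme1l siRNA libraries lie below every Scr library.

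*Atf4* (chr15:80255184-80257541, plus strand) encodes the central transcription factor of the response. Its level was 404, 429 and 491 CPM in the Scr libraries and 592, 584 and 585 CPM in the Yme1l siRNA libraries. The groups did not overlap, and the spread was 44.7 CPM (SD, n = 3) in Scr and 4.13 CPM (SD, n = 3) after Yme1l siRNA. On the log2 scale the fold change was 0.41 (SE 0.0851, edgeR adjusted p = 0.00326). It stayed called with each library left out, between 0.35 and 0.49.

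*Ddit3* (chr10:127290774-127296288, plus strand) encodes CHOP, a transcription factor that ATF4 induces and that is linked to cell death under prolonged stress. It was at 45.2, 47.7 and 60.1 CPM in Scr and at 87.5, 103 and 64.5 CPM after Yme1l siRNA. The lowest Yme1l siRNA library, replicate 3, lay just above the highest Scr library. Its log2 fold change was 0.74 (SE 0.171, edgeR adjusted p = 0.00592). The gene shares 68 exonic bases with *Mars* on the opposite strand, and whether strand was used in counting is not given in the sources used here.

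*Atf5* (chr7:44812256-44816658, minus strand) encodes a related factor that has been tied to mitochondrial stress. It went the other way from *Atf4*, at 102, 105 and 113 CPM in Scr and 91.2, 90.9 and 97.4 CPM after Yme1l siRNA. The groups did not overlap, but the log2 fold change was only -0.20 (SE 0.0713, edgeR adjusted p = 0.041). The call was lost under 9 of 14 alternatives, among them each of the fits without 1 library except that without Yme1l siRNA replicate 3. *Atf5* shares 82 exonic bases with *Nup62* and *Il4i1* on the opposite strand.

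*Chac1* (chr2:119351229-119354381, plus strand) encodes an enzyme that degrades glutathione and is induced by ATF4 and CHOP. It was at 25.9, 28.1 and 44.1 CPM in Scr and at 71.7, 68.1 and 71.5 CPM after Yme1l siRNA. The Yme1l siRNA libraries were alike and all above Scr replicate 3, and the log2 fold change was 1.11 (SE 0.178, edgeR adjusted p = 0.000872), and it was 1.38 without Scr replicate 3.

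*Asns* (chr6:7675169-7693254, minus strand) encodes asparagine synthetase, whose promoter carries the element printed above. It was at 117, 119.8 and 129.7 CPM in Scr and at 188, 149.5 and 182 CPM after Yme1l siRNA. The Scr libraries were close together, and Yme1l siRNA replicate 2 was the lowest of its group. Its log2 fold change was 0.51 (SE 0.0979, edgeR adjusted p = 0.00238), and it was called in every fit that left out 1 library.

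*Trib3* (chr2:152337422-152344032, minus strand) encodes a pseudokinase that dampens ATF4 and AKT signalling. It was at 51.3, 46.4 and 84.4 CPM in Scr and at 88.1, 74.7 and 76.7 CPM after Yme1l siRNA. The groups overlapped, because Scr replicate 3 lay within the range of the Yme1l siRNA libraries while the other Scr libraries were below it. The log2 fold change was 0.39 (SE 0.202, 95% confidence interval -0.07 to 0.86, edgeR adjusted p = 0.125). Without Scr replicate 3 it was 0.70 with an edgeR adjusted p of 0.000914, and DESeq2 on all 6 libraries called it at 0.40 with an adjusted p of 0.0496. It was not called under the other 12 of 14 alternatives.

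*Sesn2* (chr4:132492032-132510501, minus strand) encodes sestrin 2, which restrains mTORC1 when leucine is scarce. It was at 35.8, 34.3 and 52.0 CPM in Scr and at 54.2, 52.98 and 51.8 CPM after Yme1l siRNA. Again Scr replicate 3 reached the Yme1l siRNA libraries and the other Scr libraries did not. The log2 fold change was 0.38 (SE 0.145, 95% confidence interval 0.05 to 0.71, edgeR adjusted p = 0.0503). The gene was called under 8 of 14 alternatives, and without Scr replicate 3 it was 0.59 with an edgeR adjusted p of 0.000459.

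*Ddit4* (chr10:59949669-59951834, minus strand) encodes REDD1, which inhibits mTORC1 and also answers to hypoxia, glucocorticoids and p53. It was at 290.4, 324 and 390.4 CPM in Scr and at 71.3, 67.8 and 98.6 CPM after Yme1l siRNA. The highest Yme1l siRNA library was below the lowest Scr library. The log2 fold change was -2.08 (SE 0.164, edgeR adjusted p = 2.63e-05), the largest in size of the 10 genes with all 6 libraries, whereas without Scr replicate 3 that of *Gdf15* (2.55) was larger than that of *Ddit4* (-1.96). It ranged from -2.27 to -1.96 over the alternatives, all of them called.

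*Fgf21* (chr7:45613886-45615490, minus strand) and *Gdf15* (chr8:70629393-70632456, minus strand) encode hormones that tissues are known to release under mitochondrial stress. Both were at low levels. In Scr *Fgf21* was counted 6, 3 and 10 times, and after Yme1l siRNA 14, 14 and 23 times. The groups were adjacent, and the exact 95% Poisson interval of the 10 counts, 4.80 to 18.4, covers the lower Yme1l siRNA values. Its log2 fold change was 1.32 (SE 0.453, edgeR adjusted p = 0.0333), and the call was lost under 4 of 13 alternatives, which are DESeq2 and the fits without Scr replicate 1, Scr replicate 2 or Yme1l siRNA replicate 3.

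In Scr *Gdf15* was counted 21, 22 and 82 times, and after Yme1l siRNA 136, 178 and 104 times. Scr replicate 3 stood between the other Scr libraries and the Yme1l siRNA group, with an exact 95% Poisson interval of 65.2 to 102 counts. The log2 fold change was 1.65 (SE 0.472, edgeR adjusted p = 0.0156). Without Scr replicate 3 it was 2.55, and without Scr replicate 2 it was 1.40 with an edgeR adjusted p of 0.0603, which ends the call. These intervals cover counting error only.

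An exact two-sided permutation test of the log2 CPM values of single genes can reach no less than p = 0.1 with 3 libraries against 3. The 8 called genes were at this value, *Sesn2* at 0.2 and *Trib3* at 0.3. The study's methods state that replicates of MEF experiments are independent cell cultures, and the labels give no day or batch. The edgeR p-values set each difference against the spread between these cultures, moderated over all loci tested. They do not cover differences between MEF lines.

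**Figure D2:**
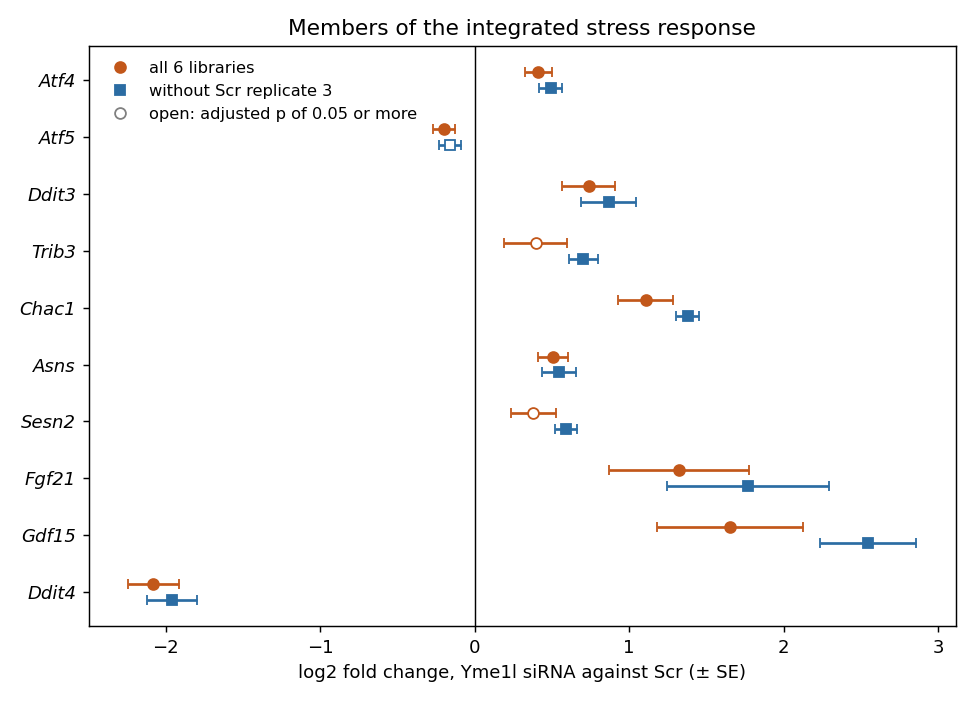
Log2 fold change of each gene, Yme1l siRNA against Scr, with its standard error, from all 6 libraries (circles) and without Scr replicate 3 (squares). Filled symbols passed an adjusted p of 0.05. *Trib3* and *Sesn2* are open with all libraries and filled without Scr replicate 3, *Atf5* is the reverse, and *Ddit4* lies near -2 in both.

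Scr replicate 3 was the highest Scr library at all 10 genes, compared with 37.9% of all loci tested. Its excess over the mean of Scr replicates 1 and 2 was 1.09-fold at *Atf5*, 1.10-fold at *Asns*, 1.18-fold at *Atf4* and 1.27-fold at *Ddit4*. It was larger at *Ddit3* (1.29-fold), *Sesn2* (1.48-fold), *Chac1* (1.63-fold), *Trib3* (1.73-fold), *Fgf21* (2.14-fold) and *Gdf15* (3.55-fold). At 8 of these genes the excess is in the direction of the Yme1l siRNA libraries, and at *Ddit4* and *Atf5* it is in the opposite direction. The low share of mtDNA counts in this library moves with these values, and its part in them was not tested.

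The Yme1l siRNA libraries did not rank alike at these genes. *Ddit3* and *Gdf15* were highest in replicate 2 and lowest in replicate 3. Replicate 2 was the lowest library at 6 genes (*Atf4*, *Atf5*, *Trib3*, *Chac1*, *Asns* and *Ddit4*), and at *Yme1l1* as well. *Fgf21*, *Atf5* and *Ddit4* were highest in replicate 3.

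Per length of annotated exon, *Ddit4* and *Atf4* had the highest levels in Scr, at 191 and 187 CPM per kb, and their ranges over libraries overlapped. *Atf5* followed at 53.6 CPM per kb and *Asns* at 44.7 CPM per kb, without overlap between them. *Ddit3*, *Trib3* and *Chac1* were at 29.8, 28.6 and 19.96 CPM per kb, where *Trib3* overlapped both of its neighbours. *Sesn2* was at 11.7 CPM per kb, and *Gdf15* and *Fgf21* were at 0.547 and 0.161 CPM per kb. After Yme1l siRNA *Atf4* was highest at 249 CPM per kb, *Asns* came next at 63.4 CPM per kb, and *Ddit4* was at 45.1 CPM per kb, but the ranges of *Asns*, *Ddit3*, *Atf5*, *Ddit4* and *Chac1* overlapped in part, and in replicate 2 *Ddit3* (60.2 CPM per kb) was above *Asns* (54.7 CPM per kb). The scale takes all annotated exons of a gene as its length, which overstates it where short isoforms are used.

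**Figure D3:**
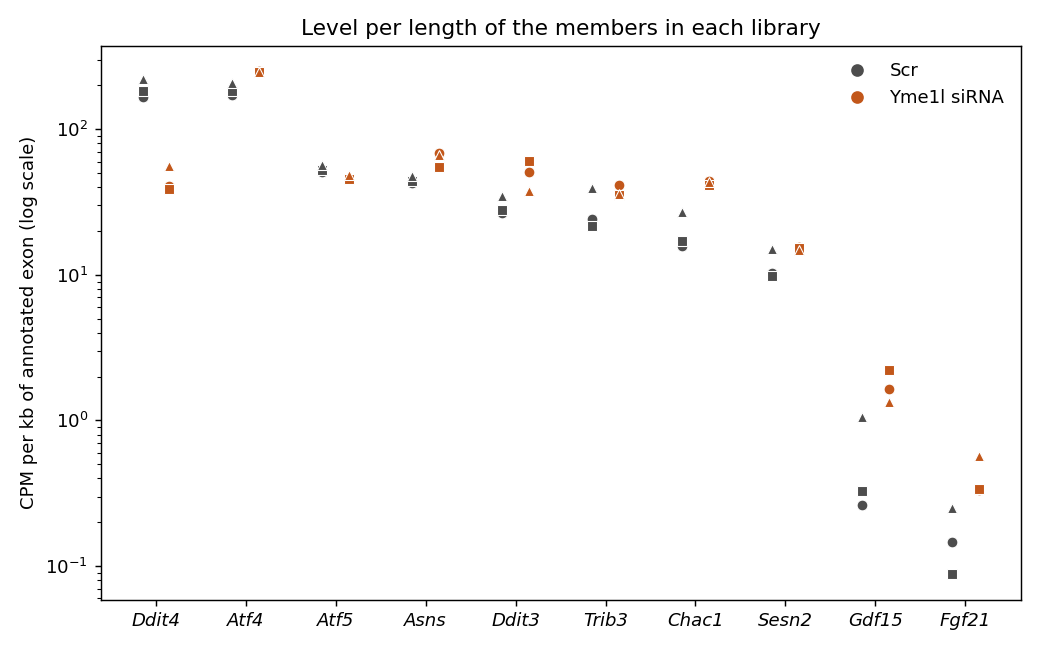
Level per kb of annotated exon of the 10 genes in each library, on a log scale, ordered by the mean of the Scr libraries. Scr libraries are grey and Yme1l siRNA libraries orange, with circle, square and triangle for replicates 1, 2 and 3. *Ddit4* moves from the top of the order in Scr, at 191 CPM per kb, to 45.1 CPM per kb after Yme1l siRNA.

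Upstream of these genes, the list of eIF2 kinases, eIF2 and eIF2B subunits and their regulators had 21 members, all tested. Of these 11 rose, 3 fell and 7 did not pass the test, with a median log2 fold change of 0.22. This is 66.7% called, compared with 58.0% of all loci tested, of which 28.4% rose and 29.6% fell. Without Scr replicate 3, 8 rose and 2 fell, where 25.8% of all loci rose and 27.4% fell. The 4 kinases went different ways. *Eif2ak2*, which encodes the double-stranded RNA sensor PKR and is itself induced by interferon, was at 174, 156 and 126 CPM in Scr and at 342, 295 and 237 CPM after Yme1l siRNA, with a log2 fold change of 0.94 (SE 0.153, edgeR adjusted p = 0.00094). The groups did not overlap, and replicate 3 was the lowest library in both.

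*Eif2ak3*, which encodes PERK, the kinase of the endoplasmic reticulum (ER), was at 64.3, 66.8 and 75.3 CPM in Scr and at 46.8, 48.6 and 44.1 CPM after Yme1l siRNA (log2 fold change -0.57, edgeR adjusted p = 0.000435). *Eif2ak4*, which encodes GCN2, the sensor of uncharged tRNA, was at 59.1, 58.3 and 72.8 CPM in Scr and at 39.3, 37.5 and 44.3 CPM after Yme1l siRNA (log2 fold change -0.65, edgeR adjusted p = 0.000858). Both fell in every Yme1l siRNA library. *Eif2ak1*, which encodes HRI, was at 90.5, 82.7 and 83.8 CPM in Scr and at 91.2, 96.6 and 92.8 CPM after Yme1l siRNA, and its log2 fold change of 0.13 (95% confidence interval -0.03 to 0.28) did not pass the edgeR test (adjusted p = 0.144).

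The proteins that relay mitochondrial stress to HRI also differed in direction. *Dele1*, listed in the table as 0610009O20Rik, was at 40.4, 40.1 and 44.6 CPM in Scr and at 61.6, 63.2 and 62.4 CPM after Yme1l siRNA, with a log2 fold change of 0.58 (SE 0.0665, edgeR adjusted p = 0.000149). *Oma1*, the protease that cleaves DELE1, was at 6.54, 7.65 and 8.72 CPM in Scr and at 5.55, 5.18 and 6.05 CPM after Yme1l siRNA, with a log2 fold change of -0.45 (SE 0.144, edgeR adjusted p = 0.0261). The groups of neither gene overlapped, but *Oma1* lost its call without Scr replicate 2 or 3 or Yme1l siRNA replicate 1 or 2 (edgeR adjusted p from 0.065 to 0.0793).

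Both genes for the targeting subunits of the eIF2α phosphatase rose. *Ppp1r15a* encodes GADD34, the inducible subunit that ends the response. It was at 39.6, 39.2 and 40.6 CPM in Scr and at 103, 126 and 75.4 CPM after Yme1l siRNA, with a log2 fold change of 1.35 (SE 0.161, edgeR adjusted p = 0.000186). The Scr libraries were nearly equal here, replicate 3 included, and the Yme1l siRNA libraries ranked as they did at *Ddit3* and *Gdf15*. *Ppp1r15b*, which encodes the constitutive subunit CReP, was at 112, 104 and 115 CPM in Scr and at 191, 185 and 183 CPM after Yme1l siRNA, with a log2 fold change of 0.76 (SE 0.0685, edgeR adjusted p = 4.73e-05).

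**Figure D4:**
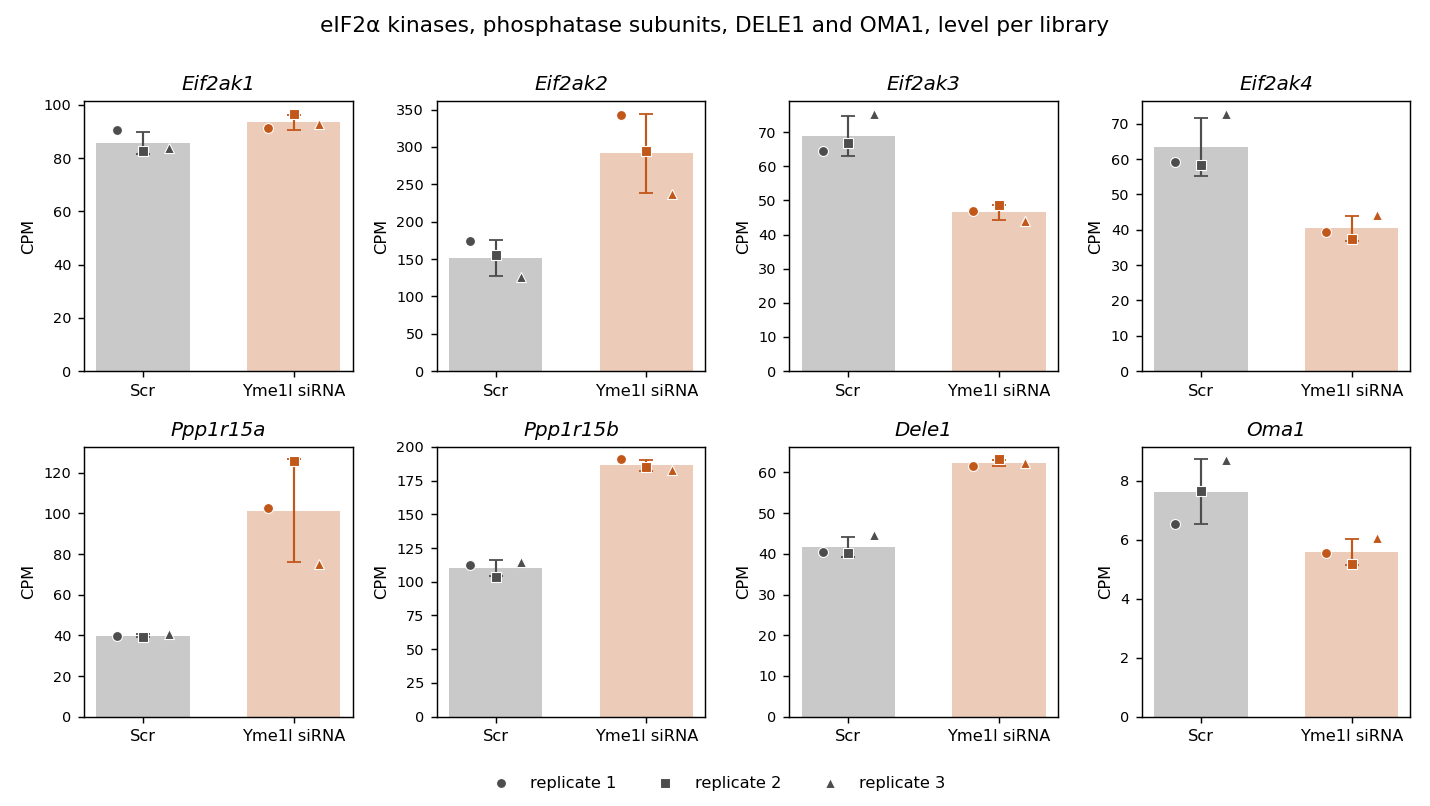
Level in each library of the genes for the 4 eIF2α kinases, the phosphatase subunits, DELE1 and OMA1, in CPM on linear axes that start at 0. Points are libraries (circle, square and triangle for replicates 1, 2 and 3), bars are means and error bars are SD (n = 3). *Eif2ak2*, *Ppp1r15a*, *Ppp1r15b* and *Dele1* are higher and *Eif2ak3*, *Eif2ak4* and *Oma1* lower in every Yme1l siRNA library, and *Eif2ak1*, whose values also do not overlap, did not pass the test.

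Transcription factors that dimerize with ATF4 or act beside it were listed with 12 names, of which 11 were tested. Of these 7 fell, 1 rose and 3 did not pass the test, where 29.6% of all loci fell and 28.4% rose. The median log2 fold change was -0.40. Without Scr replicate 3, 4 fell and 1 rose, compared with 27.4% and 25.8% of all loci. Without Yme1l siRNA replicate 1 these counts were also 4 and 1. *Cebpb*, a C/EBP partner of ATF4, was at 47.1, 38.8 and 34.9 CPM in Scr and at 27.3, 29.4 and 24.9 CPM after Yme1l siRNA (log2 fold change -0.57, edgeR adjusted p = 0.00332). *Cebpg*, the partner at amino acid response genes, was at 63.1, 66.7 and 82.8 CPM in Scr and at 54.9, 55.2 and 61.6 CPM after Yme1l siRNA (log2 fold change -0.31, edgeR adjusted p = 0.0355). Their groups did not overlap, and *Cebpg* lost its call without Scr replicate 3 (edgeR adjusted p = 0.079), Yme1l siRNA replicate 1 (0.115) or Yme1l siRNA replicate 2 (0.0954).

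*Atf3*, which ATF4 is known to induce, was at 55.8, 61.3 and 73.8 CPM in Scr and at 39.4, 54.4 and 35.0 CPM after Yme1l siRNA (log2 fold change -0.57, edgeR adjusted p = 0.0175), and it lost its call without Scr replicate 3 (edgeR adjusted p = 0.0609) or Yme1l siRNA replicate 1 (0.0653). *Nupr1*, a stress-induced chromatin protein, was at 159.6, 176 and 186 CPM in Scr and at 131, 168 and 96.7 CPM after Yme1l siRNA, where the groups overlapped and the log2 fold change of -0.40 (95% confidence interval -0.80 to -0.01) missed the threshold of the edgeR test (adjusted p = 0.0758). It was called without Yme1l siRNA replicate 2, at -0.61 with an edgeR adjusted p of 0.0066. The smallest adjusted p-values of the list belonged to *Crebrf*, a regulator of CREB3, which fell with a log2 fold change of -1.52, and *Xbp1*, the ER stress factor, which fell with -0.80. *Atf6*, the membrane-bound factor of the ER, was the exception and rose with 0.58.

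Targets of ATF4 other than the 10 genes were listed with 35 names, of which 34 were tested and *Slc7a5* had no matching row. Of these 20 rose, 4 fell and 10 did not pass the test, with a median log2 fold change of 0.42. Calls made up 70.6% of this list and 58.0% of all loci tested. Of all loci tested, 28.4% rose and 29.6% fell. Without Scr replicate 3, 21 of the list rose and 4 fell, where 25.8% of all loci rose and 27.4% fell. The smallest adjusted p-values were at *Eif4ebp1*, a repressor of cap-dependent initiation (log2 fold change 0.94), *Stc2*, a secreted glycoprotein (1.59), and *Slc7a11*, the cystine and glutamate antiporter (1.77). *Slc7a11* was at 14.0, 16.0 and 17.1 CPM in Scr and at 63.4, 41.5 and 55.4 CPM after Yme1l siRNA. The called members that fell included *Pycr1*, for the last step of proline synthesis (-0.77), *Vldlr*, a lipoprotein receptor (-1.25), and *Gpt2*, a mitochondrial alanine transaminase (-0.48).

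Neighbouring stress lists are given for comparison. Of 14 genes for ER chaperones and folding factors, 6 rose and 2 fell. This is 57.1% called, near the 58.0% of all loci tested, of which 28.4% rose and 29.6% fell. Without Scr replicate 3 there were 5 and 2. *Dnajb9* lost its call as higher (edgeR adjusted p = 0.0649), and the locus of *Manf* was called lower in place of *Edem1*. This locus also carries the name *Rbm15b*. In the fit without Scr replicate 3, 25.8% of all loci rose and 27.4% fell. The median log2 fold change was 0.13. *Sdf2l1* (1.02), *Creld2* (0.68) and *Hyou1* (0.54), all of the ER lumen, had the smallest adjusted p-values, whereas *Pdia4* (-0.31) and *Edem1* (-0.27) fell, the latter with an edgeR adjusted p of 0.0498. *Edem1* stayed called without Yme1l siRNA replicate 2 and lost its call in the other fits without 1 library (edgeR adjusted p from 0.0602 to 0.142). Of 11 listed mitochondrial proteases and chaperones, 10 were tested, 7 rose and 0 fell, also without Scr replicate 3, with a median of 0.41. Of all loci tested, 28.4% rose and 29.6% fell. At an unadjusted p under 0.05 edgeR called 0 as lower, and DESeq2 and limma-voom also called 0. This list leaves out the proteases *Oma1* and *Yme1l1*. *Oma1* was listed with eIF2 control, where it fell (-0.45, edgeR adjusted p = 0.0261), and *Yme1l1* is the siRNA target. *Afg3l2*, a subunit of the m-AAA protease (0.73), *Hspa9*, the mitochondrial Hsp70 (0.84), and *Htra2*, a protease of the intermembrane space (0.53), led this list.

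*Ddit4*, *Sesn2* and *Gdf15* are also known to respond to p53. Of 12 other p53 targets, 6 fell and 3 rose, with or without Scr replicate 3, and the median log2 fold change was -0.33. By comparison, 29.6% of all loci tested fell and 28.4% rose. *Trp53inp1*, a regulator of autophagy and cell death, was at 45.5, 44.0 and 41.6 CPM in Scr and at 10.8, 11.3 and 7.76 CPM after Yme1l siRNA. Its log2 fold change of -2.13 (SE 0.136, edgeR adjusted p = 1.16e-05) was close in size to that of *Ddit4*. *Sesn1*, the paralogue of *Sesn2*, fell with -0.84 (edgeR adjusted p = 4.33e-05), and *Eda2r*, a death receptor, fell with -0.90. *Aen* (0.72), *Mdm2* (0.42) and the locus of *Bax* (0.24), which also carries the names *Dhdh* and *Gm45808*, rose, and *Bax* lost its call without Scr replicate 1 (edgeR adjusted p = 0.0546).

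**Figure D5:**
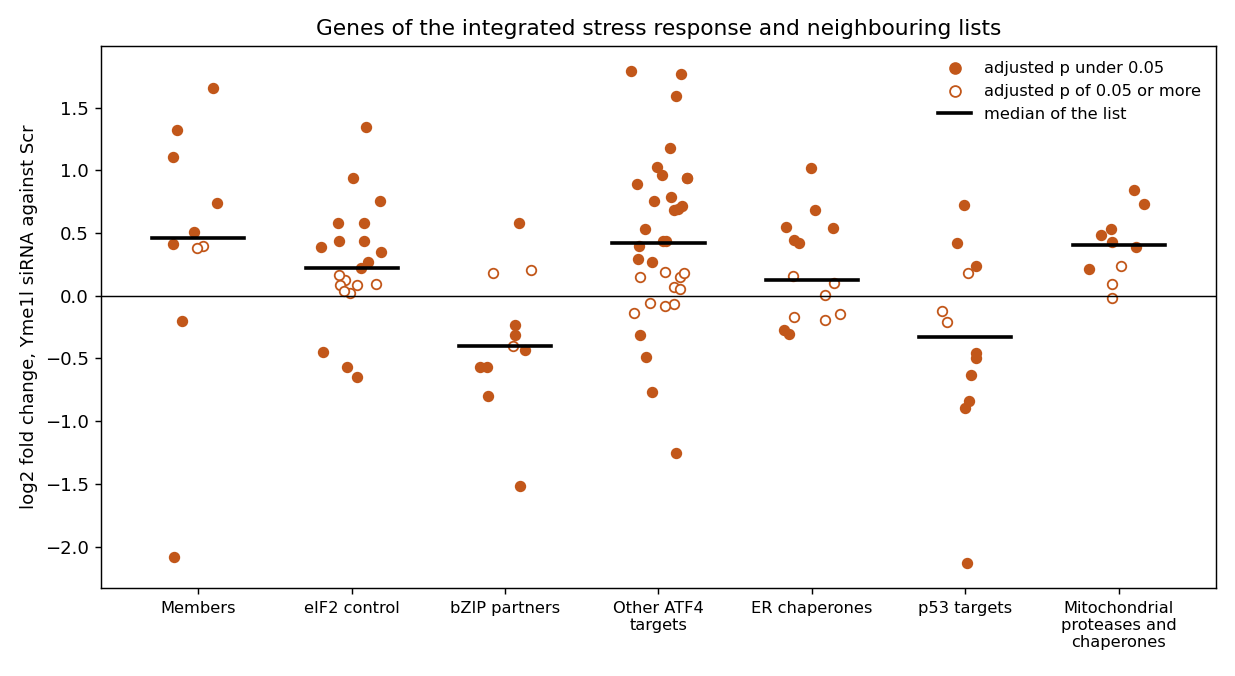
Log2 fold change of every tested gene of the 10 members and 6 other lists, Yme1l siRNA against Scr. Filled points passed an adjusted p of 0.05, open points did not, and black lines are medians. The median is 0.46 for the members, 0.42 for other ATF4 targets, 0.41 for mitochondrial proteases and chaperones, -0.40 for bZIP partners and -0.33 for p53 targets.

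Among loci whose log2 CPM averaged 1 or more, the 5 with a profile over the 6 libraries most like that of *Atf4* were *Gclc*, *Cep89*, *Ccdc66*, *Lonp1* and *Ankrd54*. The root mean square difference of their centred log2 CPM values from those of *Atf4* was between 0.0371 and 0.0430.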

How the data were processed

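RNA-Seq libraries (poly(A)-selected, stranded kit) of 6 MEF samples, 3 per siRNA, were assigned to groups from the labels, and 0 per-sample columns were left unmapped. Per the labels and the submitters' processing notes, reads were mapped to GRCm38 with HISAT2 2.0.4, assembled with StringTie 1.3.3 and compared with Cuffdiff 2.2.1. The deposited counts are raw counts per locus, not normalized by the authors. The program that counted the reads, its use of strand and its handling of multiply matching reads are not given in the sources used here. The authors' second table, which holds their pooled levels and their test of the same comparison, was not used.

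Loci were kept by filterByExpr (minimum count 10, minimum total 15), and Yme1l siRNA was compared with Scr with edgeR 4.0.16 in R 4.3.3 (TMM factors, quasi-likelihood test, no covariates), with Benjamini-Hochberg adjustment over 14499 loci. The biological coefficient of variation was 0.131. A standard error is the size of the log2 fold change divided by the square root of F, and confidence intervals use the fit's t distribution. No library repeats another, since pairs within a group differed beyond counting error (chi-square per degree of freedom 9.97 to 72.8 between pairs). Alternatives were DESeq2 1.42.0 (and its size factors in edgeR), limma-voom (limma 3.58.1), upper-quartile factors, other count filters, removal of mtDNA loci, the replicate number as a block, each library left out, and an adjusted p under 0.01. Gene coordinates and exon lengths came from GENCODE M21 (GRCm38), the build of the mapping, and promoter windows from RefSeq. No near-identical transcript (at least 90% over 200 bases, BLAST 2.17.0) was found for the 10 genes. Figures were drawn with matplotlib 3.10.9. The main edgeR fit, DESeq2, limma-voom and the replicate block were tested on simulated counts, and the other steps were not. In the simulation few loci changed, all by the same fold up or down and with the same dispersion. Here 58.0% of loci were called, and the simulation does not cover that case.

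The members, the gene lists and the tests were chosen with earlier results of these data known. Named genes are the members, *Yme1l1*, the eIF2α kinases, the phosphatase subunits, *Oma1*, *Dele1*, *Cebpb*, *Cebpg*, *Atf3* and *Nupr1*, the 3 smallest adjusted p-values of each other list, up to 3 members of a list called against its direction, and 5 loci with a profile like that of *Atf4*.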

Additional observations from a re-analysis of the deposited data

How the results depend on the processing

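No gene of the 10 changed direction under any of the 14 alternatives, and *Atf4*, *Ddit3*, *Chac1*, *Asns*, *Ddit4* and *Yme1l1* were called under all of them. The number of the 10 genes that fell was 1 in place of 2 with DESeq2 size factors, with upper-quartile factors, with all loci of at least 1 count, with a mean of at least 50 counts and at an adjusted p under 0.01, and it was 1 to 2 over the fits without 1 library. In each case *Atf5* was lost. The number that rose was between 4 and 8, the lowest without Scr replicate 2 and at an adjusted p under 0.01, and the highest without Scr replicate 3. Among bZIP partners, 2 rose in place of 1 with a mean of at least 50 counts and 4 fell in place of 7 at an adjusted p under 0.01, and over the fits without 1 library 1 to 2 rose and 4 to 7 fell. Among other ATF4 targets 2 fell in place of 4 at an adjusted p under 0.01. Among ER chaperones 1 fell in place of 2 with DESeq2 size factors, upper-quartile factors, a mean of at least 50 counts, the replicate block and an adjusted p under 0.01, and 1 to 2 over the fits without 1 library. The causes were not tested. *Fgf21* gives no value with a mean of at least 50 counts.

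Deviations of libraries of equal replicate number correlated at 0.04, 0.12 and 0.19 across loci. Pairs of unequal number ran from -0.18 to 0.09, the highest being Scr replicate 1 with Yme1l siRNA replicate 2. The labels give no day or batch, and whether equal numbers share one was not tested. With the replicate block 4227 loci rose and 4460 fell, against 4123 and 4288 without it, and 7 of the 10 genes rose, *Sesn2* being added at 0.40. Depth limits *Fgf21* most, with 19 counts in all Scr libraries.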

Other observations

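Genes outside the 10 members ranked the libraries in different ways. Of the 34 other ATF4 targets tested, Yme1l siRNA replicate 2 was the lowest of its group at 28, compared with 37.8% of all loci. Of the 14 ER chaperone genes, Yme1l siRNA replicate 3 was the lowest of its group at 12, compared with 38.5% of all loci. Scr replicate 3 was the highest Scr library at 27 of the 34 other ATF4 targets, but at 6 of the 14 ER chaperone genes and 4 of the 11 bZIP partners. The genes of a list share their libraries, so these counts describe the libraries and carry no test.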
